A study of Mus musculus with 4 samples.

Results

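The genes described here are the cardiac myosin chains and their kinase: the heavy chain genes Myh6, Myh7, Myh7b and Myh3, the light chain genes Myl7, Myl2, Myl4, Myl3 and Myl1, and Mylk3, which encodes the cardiac myosin light chain kinase. They are 10 of the 20701 gene symbols in the deposited transcript table, matched by symbol, and for each the transcript entry with the most counts over all libraries was used. The samples were Nkx2-5 reporter-positive cardiac progenitor cells (CPCs) sorted on day 5 of differentiation of mouse E14 Tg(Nkx2-5-EmGFP) embryonic stem cells, in which a green fluorescent protein marks expression of the cardiac transcription factor gene Nkx2-5. There were 2 control libraries and 2 libraries from Isl1-/- cells of the same reporter line, called Isl1_KO, and poly(A) RNA was sequenced. The knockout was made with CRISPR/Cas9 in the stem cells, so all cell types derived from the edited clones carried it. The stem cells of both genotypes had been kept on fibroblast feeders. The protocol names 2 clones per genotype, and the spread between libraries is therefore a spread between clones and cultures that cannot be told apart.

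Myosin is the motor of the thick filament. Each heavy chain has an ATPase head that pulls on actin, and the neck behind the head carries an essential and a regulatory light chain. In the mouse heart Myh6 encodes the fast alpha heavy chain and Myh7 the slow beta heavy chain, Myl7 and Myl4 encode the light chains of atrial muscle, and Myl2 and Myl3 those of ventricular muscle, although the early heart tube makes atrial chains in all of its muscle. Myh3 and Myl1 are best known from embryonic and fast skeletal muscle, and Myh7b is a slow-type heavy chain with low levels in heart. Isl1, the LIM-homeodomain factor that was knocked out, marks second heart field progenitors. Comparing the genotypes shows how the myosin RNA of the sorted reporter-positive cells, taken in bulk, differs without Isl1.

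Several of these genes lie in pairs or carry other genes within them. Myh6 (mm9, chromosome 14, 55560758 to 55585764) and Myh7 (chromosome 14, 55589525 to 55613471) stood 3760 bases apart on the minus strand. Their coding sequences contained an identical stretch of 245 bases, shown here because reads from it cannot be assigned to either gene by sequence (Myh6 coding bases 4246 to 4490, GENCODE vM1):

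Myh6 and Myh7: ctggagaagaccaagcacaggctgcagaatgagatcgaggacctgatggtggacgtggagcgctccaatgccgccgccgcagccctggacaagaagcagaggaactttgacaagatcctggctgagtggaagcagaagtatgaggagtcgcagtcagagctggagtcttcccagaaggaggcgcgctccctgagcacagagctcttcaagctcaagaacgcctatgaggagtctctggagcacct

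Of all stretches of 75 bases in the Myh6 transcript, 15.6% occurred unchanged in Myh7, and 15.5% of those of Myh7 occurred in Myh6. The same count was 0 for Myl7, Myl2, Myl4, Myl3, Myl1, Mylk3 and Myh7b against every other protein-coding gene, and 1.88% for Myh3, which shared stretches with skeletal heavy chains. So the split of counts between Myh6 and Myh7 is less certain than the values of the light chains.

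Myh6, Myh7 and Myh7b each host a microRNA in an intron of the same strand, and their mature sequences are shown for the seed they share (RefSeq, capitals mark bases 2 to 8, the seed):

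mmu-miR-208a-3p (in Myh6): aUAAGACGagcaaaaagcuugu

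mmu-miR-208b-3p (in Myh7): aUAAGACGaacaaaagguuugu

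mmu-miR-499-5p (in Myh7b): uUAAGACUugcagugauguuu

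Each hairpin matched mm9 once, in intron 29 of Myh6 (chr14:55567897-55567979), intron 31 of Myh7 (chr14:55594537-55594613) and intron 19 of Myh7b (chr2:155448616-155448694). Their seeds were identical in miR-208a-3p and miR-208b-3p, and miR-499-5p shared UAAGAC of them. Mature microRNAs carry no poly(A) tail and were not measured in these libraries.

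The libraries held from 8821536 to 9147419 gene counts in control and from 11388326 to 13186103 in Isl1_KO, and the biological coefficient of variation of the joint fit was 11.1%. Isl1 itself was counted 309 and 326 times in control but 17 and 24 times in Isl1_KO, so the libraries followed their labels. Cardiac progenitor markers were present in every library. Of the 8 listed ones, 5 were lower in Isl1_KO (Nkx2-5, Isl1, Tbx5, Mef2c and Hand2), beside 1.94% of all tested genes. Gata4, Pdgfra and Tbx20 missed the threshold, but lay below control in both Isl1_KO libraries, as did 29.0% of all tested genes. The 8 markers summed to 1007 to 1008 counts-per-million (CPM) in control and 431 to 512 CPM in Isl1_KO. Of the 8 listed skeletal muscle markers, Myf5 and Myod1 had 0 counts in all libraries. The list summed to 5.56 to 6.78 CPM in control and 4.77 to 6.25 CPM in Isl1_KO. Most of that sum was Actn3, whose groups overlapped. None of the 6 smooth muscle and none of the 6 fibroblast markers passed the test. Their summed levels in Isl1_KO replicates 1 and 2 were 2177 and 746 CPM for smooth muscle, against 2528 to 2534 CPM in control. For fibroblasts they were 1116 and 411 CPM, against 1821 to 1879 CPM. Of the 6 fibroblast markers, 5 lay below control in both Isl1_KO libraries and Thy1 overlapped, with a median log2 fold change of -1.86. The smooth muscle sum was mostly Acta2 and Tagln. Of the 6 smooth muscle markers, 4 lay below control in both Isl1_KO libraries, Acta2 among them, beside 29.0% of all tested genes. Tagln and Smtn lay above control in replicate 1 and below it in replicate 2. Tagln was at 842 and 346 CPM, against 681 and 690 CPM in control. Summed endothelial markers (0 of 6 passed) were at 377 to 378 CPM in control and 334 to 372 CPM in Isl1_KO, a sum mostly of Kdr, whose groups overlapped. Of the other 5, Cdh5, Tek, Tie1 and Emcn lay below control in both Isl1_KO libraries, beside 29.0% of all tested genes. Emcn had 0 counts in both Isl1_KO libraries, and Pecam1 lay above control in both. Of the blood markers Runx1 rose, and Gata1, Tal1 and Itga2b, which missed the threshold, also lay above control in both Isl1_KO libraries. The share of all tested genes that lay above control in both was not computed. The sum of the 6 blood markers ran the other way, at 413 to 425 CPM in control and 277 to 354 CPM in Isl1_KO, through the embryonic globin gene Hbb-bh1, which was at 284 and 293 CPM in control and 160 and 42.0 CPM in Isl1_KO. The part of these differences in the myosin results was not tested, and in sorted cells in bulk, fewer muscle cells and less myosin RNA per cell cannot be told apart.

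Together the 10 genes took 8332 and 8778 counts in the control libraries, 0.0945% and 0.0960% of all gene counts, and only 315 and 316 counts in the deeper Isl1_KO libraries, 0.00239% and 0.00277%. In edgeR's quasi-likelihood test, with Benjamini-Hochberg adjustment over all 12715 genes tested, 7 of the 10 genes were lower in Isl1_KO and none was higher at an adjusted p under 0.05. Of all tested genes, 2.45% passed, 1.94% as lower and 0.511% as higher in Isl1_KO. Myh6, Myh7, Myl7, Myl2, Myl4, Myl3 and Mylk3 fell, Myh7b was tested and missed the threshold, and Myh3 and Myl1 had too few counts to be tested. In all 8 tested genes both Isl1_KO libraries lay below both control libraries, as was so for 29.0% of all tested genes. The median log2 fold change of the 8 was -4.95, beside -0.0025 over all tested genes, but Myl2 and Mylk3 passed the filter on low counts (0.974 CPM) through their control libraries alone.

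**Figure D1:**
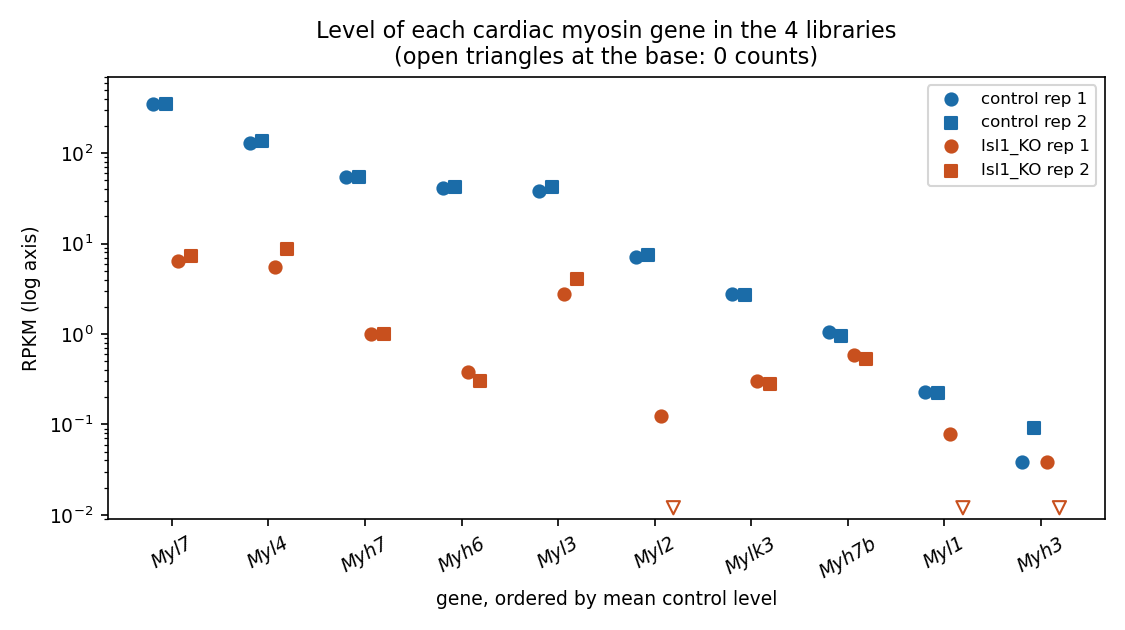
Level of each gene as counts per kilobase of transcript (RPKM, scaled to library size, log axis) in each of the 4 libraries, with blue for control and orange for Isl1_KO and with circles for replicate 1 and squares for replicate 2. Open triangles mark libraries with 0 counts. In control the genes range from Myl7 at 351 RPKM to Myh3 at 0.0651 RPKM, and in Isl1_KO the highest are Myl4 and Myl7, near 7 RPKM.

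Among the heavy chains, the fast Myh6 was counted 2205 and 2333 times in control and 30 and 21 times in Isl1_KO. Its slow neighbour Myh7 gave 2859 and 2963 counts in control but 78 and 69 without Isl1. Both genes were thus high in control only, and the groups stood far apart, with replicates of a group close together. Per length (RPKM), Myh7 was the more abundant, at 54.0 ± 0.0380 RPKM in control (SD, n = 2) and 0.997 ± 0.00107 RPKM in Isl1_KO (SD, n = 2). Myh6 was at 41.9 ± 0.583 and 0.342 ± 0.0567 RPKM (SD, n = 2 each). On the log2 scale the fold change was -6.92 (SE 0.113) for Myh6 and -5.76 (SE 0.0804) for Myh7, with an edgeR adjusted p of 3.8e-05 for each. Only 11 of the 12715 tested genes had a lower log2 fold change than Myh6, and 18 had a lower one than Myh7. As a share of the control level, 0.822% of Myh6 was left in Isl1_KO, with a 95% exact counting interval of 0.611% to 1.08%, and 1.85% of Myh7 (1.56% to 2.18%). Such intervals cover counting error only.

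Myh7b (chromosome 2, 155436948 to 155460043) did not follow this pattern. Its control libraries held 57 and 53 counts and its Isl1_KO libraries 47 and 37, or 1.01 ± 0.0779 and 0.560 ± 0.0468 RPKM (SD, n = 2 each). Both Isl1_KO libraries lay below both control libraries, but its log2 fold change of -0.84 (SE 0.211) had an edgeR adjusted p of 0.110. Of the control level, 55.9% was left (41.5% to 74.9%). The call depended on which library was in the fit: without Isl1_KO replicate 1 the adjusted p was 0.00210 and without Isl1_KO replicate 2 it was 0.0127, when the spread came from the control pair alone. An exon of Myh7b overlaps one of Trpc4ap by 37 bases, and both strands were counted together. Myh3 (chromosome 11, 66891802 to 66915793), the embryonic skeletal heavy chain, was counted 2 and 5 times in control and 3 and 0 times in Isl1_KO, at or near the floor of 3 counts, so no fold is given.

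The regulatory light chain of atrial type, Myl7 (chromosome 11, 5796640 to 5798785), was the most abundant of all 10 genes in control per length. Its counts were 1792 and 1870 in control, against 49 in each Isl1_KO library. Its level was 351 ± 1.46 RPKM in control and 6.90 ± 0.590 RPKM in Isl1_KO (SD, n = 2 each). The groups were separated by far more than their spread, at -5.67 on the log2 scale (SE 0.0929, adjusted p from edgeR 3.8e-05), and 1.96% of the control level was left (1.59% to 2.39%). Its ventricular counterpart Myl2 (chromosome 5, 122550960 to 122563481) was far less abundant in control. Its control libraries held 39 and 43 counts, 7.32 ± 0.315 RPKM (SD, n = 2), and its Isl1_KO libraries 1 and 0. It fell by 6.45 on the log2 scale (SE 0.574, edgeR adjusted p 0.0128), a value that depends on the small count added in the fit. Measured from the counts, 0.892% of its control level was left, with an interval of 0.0223% to 5.11%, so Myl2 cannot be ordered among the other chains at this depth. Without control replicate 1 its adjusted p was 0.160 and without control replicate 2 it was 0.141.

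The essential light chains fell less. Myl4 (chromosome 11, 104411977 to 104457067), the atrial one, was counted 999 and 1086 times in control and 62 and 88 times in Isl1_KO. Its level was 133 ± 4.40 RPKM in control and 7.11 ± 2.33 RPKM in Isl1_KO (SD, n = 2 each), so it fell by 4.24 on the log2 scale (SE 0.201, adjusted p from edgeR 0.00276). Myl3 (chromosome 9, 110666150 to 110672308), the ventricular and slow skeletal one, gave 302 and 348 counts in control but 32 and 42 without Isl1. Both were well above the floor of 3 counts in every library, and for both Isl1_KO replicate 2 was the higher of its pair. Myl3 was at 40.7 ± 3.02 and 3.43 ± 0.942 RPKM (SD, n = 2 each) and fell by 3.57 on the log2 scale (SE 0.205, adjusted p from edgeR 0.00368). The level left was 5.26% for Myl4 (4.43% to 6.21%) and 8.33% for Myl3 (6.46% to 10.6%). Those intervals lay above the intervals of Myh6, Myh7 and Myl7, but they do not cover the spread between libraries. With 1 library left out, the log2 fold change ran from -4.60 to -3.93 for Myl4 and from -3.87 to -3.31 for Myl3. For Myl7, Myh7 and Myh6 it was at most -5.58, -5.75 and -6.77. Myl1 (chromosome 1, 66970869 to 66991978), the essential light chain of fast skeletal muscle, had 2 counts in each control library and 1 and 0 in Isl1_KO, all at or under the floor.

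Mylk3 (chromosome 8, 87848202 to 87910244), whose kinase phosphorylates the regulatory light chain in heart muscle, had 75 counts in each control library and 12 and 10 in Isl1_KO. Its level was 2.74 ± 0.0711 RPKM in control and 0.293 ± 0.0127 RPKM in Isl1_KO (SD, n = 2 each). The kinase was therefore low in control and lower still in both Isl1_KO libraries, and fell by 3.20 on the log2 scale (SE 0.239, adjusted p from edgeR 0.00791). The level left was 10.7% (6.53% to 16.9%). Without control replicate 1 the adjusted p was 0.144 and without control replicate 2 it was 0.120. For comparison, 22.3% of the level of Nkx2-5, the gene whose reporter was used for sorting, was left in Isl1_KO (17.9% to 27.7%), from 186 and 181 counts in control and 62 and 50 in Isl1_KO.

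**Figure D2:**
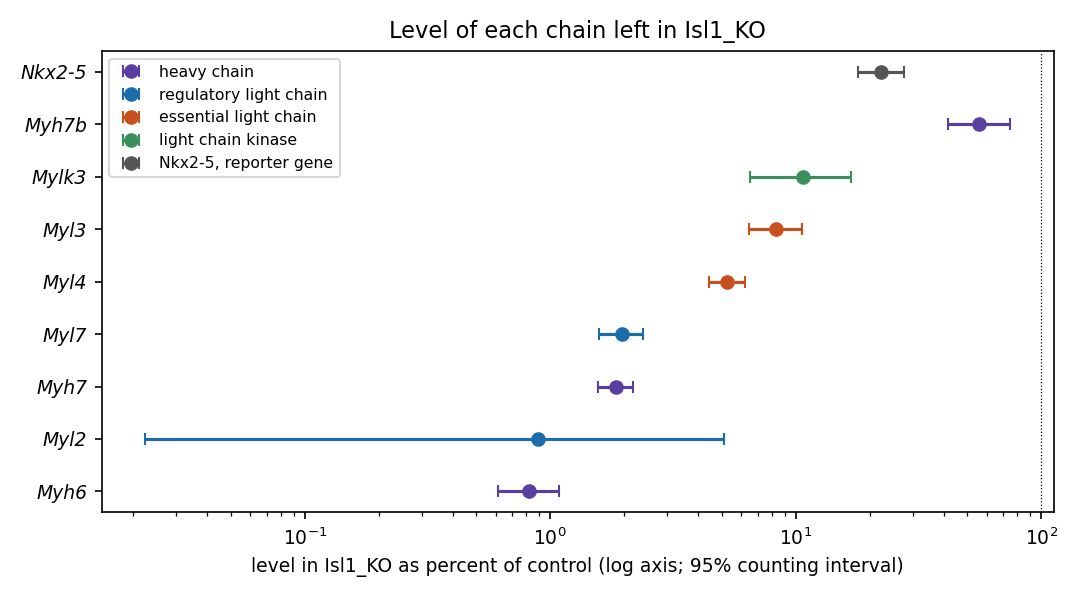
Level in Isl1_KO as a percent of control (log axis) for the 8 tested genes and Nkx2-5, from counts summed over the libraries of a group and scaled by library size. Bars are 95% exact intervals for counting error, colours give the role of the chain, and the dotted line is 100%. The points run from 0.822% for Myh6 to 55.9% for Myh7b, and Myl2 has the widest interval.

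Ordered by level in control, the genes were Myl7, Myl4, Myh7, Myh6, Myl3, Myl2, Mylk3, Myh7b, Myl1 and Myh3, all in RPKM, with Myl1 and Myh3 near the floor. Neighbours in this order did not overlap between the control libraries except Myh6 and Myl3. Myh6 was at 41.5 and 42.3 RPKM and Myl3 at 38.6 and 42.8 RPKM. In Isl1_KO the order changed. Myl4 (5.47 and 8.76 RPKM) and Myl7 (6.48 and 7.32 RPKM) overlapped at the top and Myl3 followed at 2.77 and 4.10 RPKM. Myh7 was at 0.997 and 0.996 RPKM, above Myh7b at 0.593 and 0.527 RPKM and Myh6 at 0.382 and 0.302 RPKM. The lower Myh6 library met the higher of Mylk3, at 0.302 and 0.284 RPKM, so these neighbours could not be ordered.

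The balance of light to heavy chains, chosen for description after the values were seen, shifted with it. In control the essential light chains Myl4 and Myl3 summed to 1.77 and 1.86 times the RPKM of Myh6 and Myh7 together, and in Isl1_KO to 5.97 and 9.91 times. The regulatory light chains Myl7 and Myl2 summed to 3.74 times the heavy chains in both control libraries and to 4.79 and 5.64 times in Isl1_KO. So regulatory light chains exceeded essential ones in control, at 358 ± 1.78 against 174 ± 7.42 RPKM, and the reverse held in Isl1_KO, at 6.96 ± 0.503 against 10.5 ± 3.27 RPKM (SD, n = 2 each).

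Pairs of chains were compared within each library. The light chain pairs were atrial and ventricular, and Myh6 and Myh7 were the fast and slow heavy chains. The smallest two-sided p of an exact permutation test over 2 and 2 libraries is 0.333, and these ratios are therefore given as values. For the heavy chains, Myh6 made up 43.4% and 43.9% of the summed RPKM of Myh6 and Myh7 in control and 27.7% and 23.3% in Isl1_KO. The log2 ratio of Myh6 over Myh7 (counts, prior count of 1) was -0.37 and -0.34 in control and -1.34 and -1.67 without Isl1, a difference in means of -1.14 (exact p = 0.333). For the essential light chains, Myl4 made up 77.1% and 76.1% of Myl4 and Myl3 in control and 66.4% and 68.1% in Isl1_KO. Their log2 ratio was 1.68 ± 0.0592 and 0.99 ± 0.0847, a difference of -0.69 (exact p = 0.333). Myh6 and Myl4 thus each took a smaller share of their pair in Isl1_KO than in control, and the groups did not overlap. For the regulatory light chains, Myl7 made up 98.0% and 97.9% of Myl7 and Myl2 in control and 98.1% and 100% in Isl1_KO. Their log2 ratios overlapped between the groups, with a difference of -0.44 (exact p = 1), and the sign of that difference turned with the prior count, to 0.90 at 0.25, since Myl2 had at most 1 count in an Isl1_KO library.

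**Figure D3:**
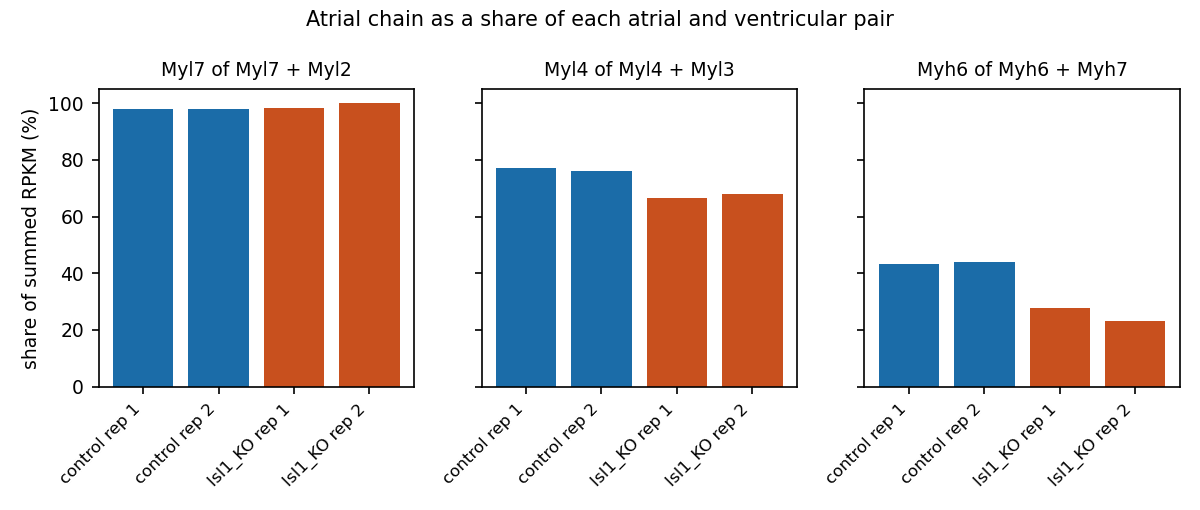
Share of Myh6, Myl4 and Myl7 in the summed RPKM of their pairs with Myh7, Myl3 and Myl2, in percent. Each of the 4 libraries is shown, with blue for control and orange for Isl1_KO. Myl7 stands near 98% in every library but Isl1_KO replicate 2, where Myl2 had 0 counts, while Myl4 and Myh6 take smaller shares in both Isl1_KO libraries than in either control library.

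The gene list labelled Myh6 atrial and Myh7 ventricular, although they are described here only as the fast and slow heavy chains. By these labels, all 3 atrial (Myh6, Myl7, Myl4) and all 3 ventricular genes (Myh7, Myl2, Myl3) were among the 7 that fell. Their log2 fold changes were -6.92 to -4.24 and -6.45 to -3.57. The value of -6.45 is that of Myl2, which had 1 and 0 counts in Isl1_KO and passed the filter through its control libraries alone. It depends on the small count added in the fit, and the other ventricular genes were at -5.76 (Myh7) and -3.57 (Myl3). Of the 4 other genes, 1 fell, 1 missed the threshold and 2 were not tested.

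The wider myosin machinery was examined with a list of 30 genes outside the set, of which 21 were tested. Of these, 1 fell (4.76%, beside 1.94% of all tested genes) and 0 rose (beside 0.511%) in edgeR's test. The median log2 fold change was -0.12, and 9 of the 30 had too few counts. The gene that fell was Smyd1, which encodes a muscle methyltransferase needed for thick filament assembly. It was counted 730 and 786 times in control and 24 and 9 times in Isl1_KO. Smyd1 fell by 5.97 on the log2 scale (SE 0.267, adjusted p from edgeR 0.00254). In Isl1_KO replicate 2 it stood at 0.781 CPM, under the 0.974 CPM of the filter, which both libraries met in control only. Unc45b, which encodes the muscle myosin chaperone, went from 771 and 750 counts to 312 and 94, and both Isl1_KO libraries lay below both control libraries. Its log2 fold change of -2.39 (SE 0.450) had an edgeR adjusted p of 0.0704. It passed without a filter on low counts, in DESeq2 and with the replicate number as a block. The general chaperone Hsp90aa1, the most abundant gene of its role, stood 0.22 above control on the log2 scale (SE 0.0801, adjusted p from edgeR 0.193).

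The non-muscle heavy chains Myh9 and Myh10 summed to more than Myh6 and Myh7 in every library, and neither Myh9 nor Myh10 passed the test. In control the sums were 307 ± 3.07 against 95.8 ± 0.545 RPKM (SD, n = 2 each). Myh14, at 1.19 RPKM in control, was not in this sum and did not pass. Myh10, a non-muscle heavy chain, was at 178 RPKM in control and 141 RPKM in Isl1_KO, or -0.34 on the log2 scale (SE 0.162, adjusted p from edgeR 0.283). Myh9, the other main non-muscle heavy chain, was at 129 and 143 RPKM (0.15 on the log2 scale, SE 0.103, adjusted p from edgeR 0.438). In control, Myh6 and Myh7 made up 23.9% and 23.7% of the summed RPKM of these 4 heavy chains, and in Isl1_KO 0.430% and 0.522%. The non-muscle light chain Myl12a was at 192 and 178 RPKM (log2 fold change -0.11, SE 0.166, edgeR adjusted p 0.727). Among the other kinases Rock2 was at 44.3 and 44.7 RPKM (log2 fold change 0.014, SE 0.0679, edgeR adjusted p 0.923). Ppp1cb, the catalytic subunit of myosin phosphatase, was at 115 and 109 RPKM (-0.077, SE 0.0669, edgeR adjusted p 0.532). None of the 6 skeletal heavy chains had enough counts to be tested. Of them Myh2 had the most counts, with 6 and 13 in control and 1 in each Isl1_KO library, and Myh8 had 0 in all 4.

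**Figure D4:**
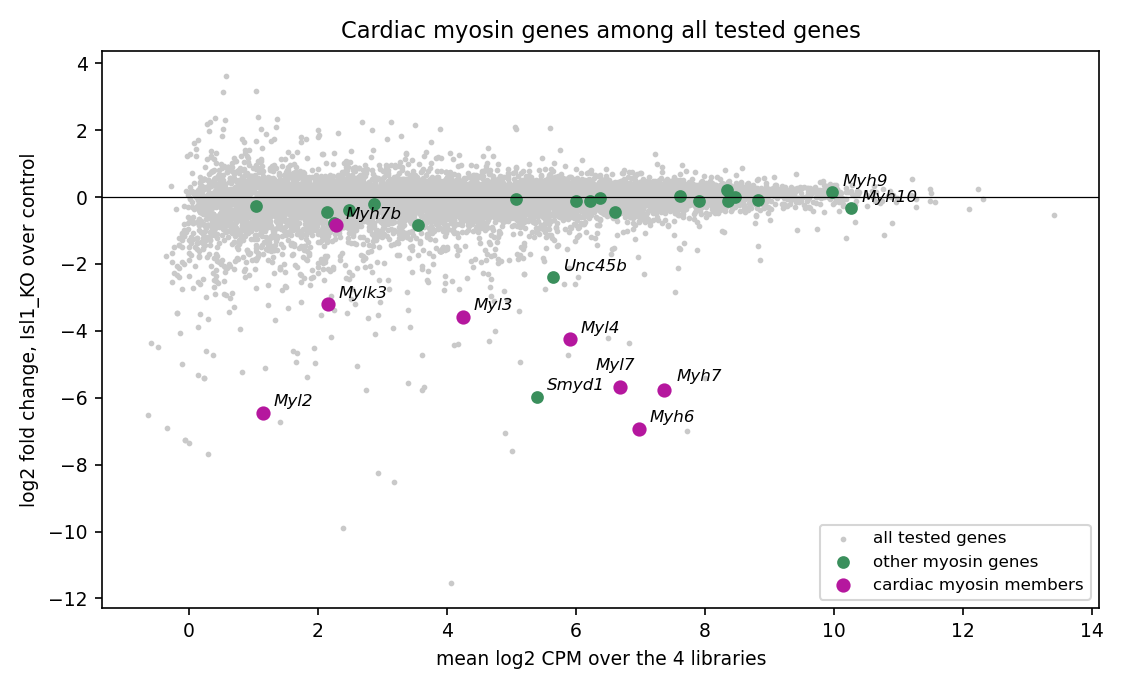
Log2 fold change, Isl1_KO over control, against mean log2 CPM for the 12715 tested genes (grey), the 21 tested genes of the wider myosin list (green) and the 8 tested cardiac myosin genes (magenta). Most green points lie close to 0, with Smyd1 at -5.97 and Unc45b at -2.39, while 7 of the magenta points lie at or below -3.20 and Myh7b at -0.84.

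The DNA just upstream of the transcripts was searched because 7 of these genes fell together. In the 250 bases before each start (GENCODE vM1, mm9, both strands), the CArG box, which serum response factor binds, was found in Myl7 and Myl3, and in 1.10% of 11641 promoters of tested genes. The MEF2 site was found in Myl2, and in 1.61% of these promoters. GGAATG, the core of the MCAT element, was found in 4 of 10 (Myh6, Myh7, Myl7 and Myl3) and in 10.7% of promoters, GATAA in 3 of 10 (Myh7b, Myl7 and Mylk3) and in 14.5%, and CTAATG, a LIM-homeodomain type site, in Myl2 and in 4.29%. TNAAGTG, an Nkx2 type site, was found in Myh7 and in 7.34%, and TATAAA in Myh3 and Myl1 and in 6.12%. Myh3 and Myl1 were not tested, so the 11641 promoters do not include theirs. None of these letters overlapped between different motifs in the members' windows. The 100 bases before the start are shown for the light chain genes with a CArG box or a MEF2 site, and capitals mark these and GATAA:

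Myl7 (chr11:5798786-5798885, minus strand): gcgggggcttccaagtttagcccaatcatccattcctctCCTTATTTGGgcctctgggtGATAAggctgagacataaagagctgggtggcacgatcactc

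Myl3 (chr9:110666050-110666149, plus strand): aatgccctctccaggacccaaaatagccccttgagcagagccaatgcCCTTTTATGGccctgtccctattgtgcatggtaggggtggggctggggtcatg

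Myl2 (chr5:122550860-122550959, plus strand): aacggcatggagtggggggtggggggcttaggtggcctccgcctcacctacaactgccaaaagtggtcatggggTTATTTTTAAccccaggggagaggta

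The CArG box began 61 bases before the start in Myl7 and 53 bases before it in Myl3, and the MEF2 site began 26 bases before the start in Myl2. Genes that fell held different sets of these letters, and Myl4, which fell, held none of the 7 motifs in its window. Each window was taken before the start of 1 transcript per gene. For Myh6, Myl1 and Mylk3 the window lay within the gene span given above. Presence or absence of a motif therefore depends on the start that was used. A match is a run of letters and was not tested for binding.

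Genes with the most similar course over the 4 libraries were looked for among 10877 tested genes outside the set whose log2 CPM averaged 2 or more. The measure was the Euclidean distance of log2 CPM, centred on the control mean, to the mean course of the 8 tested members, which stood at -4.39 and -4.40 in the Isl1_KO libraries. The nearest was Myocd, a coactivator of serum response factor, at a distance of 0.217. Isl1 (0.460), Tnnt2, cardiac troponin T (0.529), Thbs4, a matrix glycoprotein (0.549), and Mef2c, a MADS-box transcription factor (0.551), followed. With only 4 libraries in 2 groups, the measure largely ranks genes by the size of their decrease.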

How the data were processed

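RNA-Seq of 2 control and 2 Isl1_KO libraries was analysed, grouped by sample title (the series' design text speaks of a knockdown, the titles and methods of a knockout). The authors mapped reads to mm9 with STAR and counted exonic reads of RefSeq transcripts with HOMER, strands combined, so the deposited counts are raw and transcripts of 1 gene share reads. The deposited RPKM values, made by the authors with edgeR, were recomputed to within 0.751% for entries with at least 200 counts and not used further. The RPKM values in the text use counts of 1 entry per gene and effective library sizes. The authors' deposited table also holds a comparison that was not used: log2 fold changes with errors, the p-value and its adjusted value, a Wald score and a signal column of mean normalized counts. For the aligner, the counter and the authors' edgeR and DESeq2, versions are not given in the sources used here.

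For 3 members (Myh6, Myl1 and Mylk3) the entry with the highest summed count of several was kept. The main test was edgeR 4.0.16 in R 4.3.3 (TMM, filterByExpr, quasi-likelihood, two-sided, no covariate). SE is the log2 fold change divided by the square root of F. In simulated data with 12571 genes the test gave back 98% of 4-fold and 100% of 16-fold changes, with 7 false calls. How far this holds for the spread of the real libraries was not tested. Alternatives were RLE factors, DESeq2 1.42.0, 2 other filters, all 31507 entries, a replicate block, other prior counts and leaving out each library. Tables and exact tests were made in Python 3.11.15 with scipy 1.17.1.

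The members and the gene lists were chosen with earlier results of these data known. By rule, the text names all members, Isl1, each gene of the wider list that passed and the most abundant per role, and the 5 genes with the most similar course. Myh9, Myh14, Unc45b, Myh8 and the marker genes were named after their values were seen. A count of 3 was the floor, and intervals are 95% and exact.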

Additional observations from a re-analysis of the deposited data

How the results depend on the processing

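The 7 members that fell were called under RLE factors, DESeq2, no filter, all transcript entries and the replicate block, and 6 when each library had to hold 10 counts, a filter that left Myl2 untested. With one library left out there were 5 to 8 members called, 1 to 12 genes of the wider myosin list and 28 to 6355 genes in all. The low counts came without a control library and the high ones without an Isl1_KO library, when the lone library of a group is assumed to vary like the remaining pair. Of all genes, 312 were called in the main test, 602 in DESeq2 (306 shared) and 492 without a filter (312 shared). The wider list went from 1 called gene to 2 with DESeq2, no filter or the block, and to 0 under the 10-count filter, which left Smyd1 untested. With the block 428 genes were called (290 shared). No effect shared by libraries with the same replicate number was seen, as their deviations correlated at r = 0.0145 over 12715 genes. This correlation cannot show whether the libraries were paired, since it includes counting noise. Leaving out one library moved the difference in log2 ratio from -1.31 to -0.98 for Myh6 over Myh7, from -0.75 to -0.63 for Myl4 over Myl3 and from -0.96 to 0.075 for Myl7 over Myl2. The last was -2.20 at a prior count of 5 and 0.90 at 0.25, so its sign depended on the prior count and on Isl1_KO replicate 1. Depth limits Myl2, Myh3 and Myl1, whose Isl1_KO libraries had at most 3 counts.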
